A study of Mus musculus with 34 samples.

Results

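Fibroblasts sorted from mouse bone were compared with fibroblasts sorted in the same way from 8 other tissues. The bone group holds 3 of the 34 libraries of the series, those the labels title as bone-associated fibroblasts 1 to 3, and the comparison group holds 22 libraries. These are 3 libraries each from brown adipose tissue, epididymal fat, inguinal fat, lymph node (sLN in the labels), mesentery and omentum, and 2 each from pancreas and spleen; the 9 mesothelial libraries were not used. In all 9 groups the tissue was digested and cells were sorted that bore podoplanin and PDGFRA but not CD45, CD31 or EpCAM, and polyadenylated RNA was sequenced. The labels also mark every one of these libraries as GFP-negative. They give no strain, age, sex or genotype, and do not say which bone was taken or whether marrow, periosteum or bone surface was included. Nor do they say whether the replicates were separate animals, so the p-values measure the spread between these libraries, which may be technical.

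As background, bone-forming osteoblasts arise from mesenchymal cells under the transcription factors RUNX2 and SP7 (osterix). They secrete a matrix built mainly of type I collagen, load it with acidic proteins such as osteocalcin, bone sialoprotein, osteopontin and DMP1, and mineralise it with the help of the phosphatase ALPL. Osteoblasts embedded in that matrix become osteocytes, and stromal cells in and around bone also govern osteoclasts and blood-forming cells. Fibroblasts of soft tissues, by contrast, are known for the interstitial and basement membrane matrix around vessels, fat and epithelia.

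Values are counts-per-million (CPM), with library totals scaled by the TMM method, and are given in the order of bone libraries 1, 2 and 3. A log2 fold change is the bone value minus the mean of the 8 tissue values on the log2 scale, each tissue weighted equally, and is followed by its standard error; a value with ± and no unit in parentheses is of this kind. A gene is called higher or lower where edgeR's quasi-likelihood test gave a Benjamini-Hochberg adjusted p under 0.05 over all genes tested and the log2 fold change was at least 1 in size. Where a tissue had no count at all, the ratio of the mean bone CPM to the mean of the 8 tissue means is given in place of the fitted value. In bulk RNA, fewer cells of a type and less RNA per cell cannot be told apart.

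Bone fibroblasts differed from the mean of the 8 tissues in skeletal and soft tissue genes. Skeletal genes were higher (18 of 19 mineralised matrix genes, 18 of 20 cartilage genes and 9 of 12 osteoblast transcription factors). Soft tissue genes were lower (15 of 21 basement membrane genes, 14 of 18 adventitial fibroblast genes and 9 of 19 complement genes). Lymph node was the lowest of the other tissues for 10 of these basement membrane genes and 13 of these adventitial genes. Of 24507 genes tested, 4863 (19.8%) were called, of which 3013 (12.3%) were higher in bone fibroblasts and 1850 (7.55%) were lower. All 3 bone libraries lay outside the range of the 22 others in the called direction for 1284 of the higher genes (5.24% of genes tested) and 710 of the lower (2.90%). Whether called or not, 6.35% of genes had all bone libraries above the others and 4.10% had all below. The median log2 fold change of all genes was -0.04. Against single tissues, the share of genes higher in bone was 9.28% for spleen, 10.2% for omentum, 10.3% for pancreas, 10.5% for brown adipose, 10.9% for inguinal fat, 11.3% for epididymal fat, 11.4% for mesentery and 13.3% for lymph node. The share lower was 7.38% for inguinal fat, 7.59% for brown adipose, 8.23% for mesentery, 8.48% for epididymal fat, 9.34% for spleen, 10.7% for pancreas, 10.9% for lymph node and 11.7% for omentum. These 8 comparisons share the bone libraries.

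The bone libraries held 30.9 to 32.0 M counts (M for mega) in total and the others 28.7 to 42.3 M. Mitochondrial genes took 2.47 to 2.85% of counts in bone and 1.43 to 2.45% in the others. AY036118 and Gm42418, genes that overlap ribosomal RNA sequence, took 2.89, 4.26 and 5.90% of bone counts and 0.318 to 2.88% of the others'. Bone library 3 was highest and library 1 lowest for this share, the order also of the type I collagen genes (9.33, 12.99 and 15.7% of counts), and its part in the results was not tested. Pearson's r of log2 CPM across genes was 0.954 to 0.962 between bone libraries, and its median with other tissues ran from 0.854 (pancreas) to 0.886 (brown adipose); genes are not independent replicates. The 10 most abundant genes took 23.2 to 34.2% of bone counts and 12.2 to 27.7% elsewhere.

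The sort itself used 5 of the measured genes. Pdgfra (chr5:75152292-75198215; gene positions are those of GENCODE M21 on GRCm38), the receptor on which the cells were selected, was at 394, 381 and 341 CPM in bone, below every other library (663 to 1323 CPM; log2 fold change -1.34 ± 0.13, adjusted p = 6.1e-09). Pdpn, which encodes podoplanin, was at 212, 167 and 185 CPM against 157 to 406 CPM (-0.36 ± 0.14, adjusted p = 0.051). Ptprc, which encodes CD45, was low throughout, at 2.37, 3.43 and 3.74 CPM against 0 to 5.62 CPM, and was called higher (log2 fold change 1.80 ± 0.58, adjusted p = 0.018); the call was lost without bone library 2 (1.75) and without bone library 3 (1.69), and the value was 2.46 without mesentery library 2. Pecam1 (CD31) was at 5.35, 6.87 and 10.4 CPM and was not called, and Epcam reached at most 0.073 CPM in bone. Both positive markers of the sort were therefore present in bone fibroblasts, with less Pdgfra RNA than in any other library.

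Markers of other cells were measured beside these. Summed CPM of 13 skeletal muscle genes was 5165, 5460 and 388 in the bone libraries against 2.76 to 29.0 in the others, led by Acta1, Ckm and Tnnc2, and all 13 were called higher. The sum of 13 neutrophil and granulocyte progenitor genes was 167, 450 and 557 against 1.22 to 19.99, and all 13 were called higher. No gene of these lists was at 0 in a bone library. The sum over 9 erythroid genes was 131, 79.4 and 19.1 against 0.81 to 419, and that over 16 general leukocyte genes was 74.9 to 135 against 12.4 to 894. Endothelial genes (11) summed to 48.1 to 106 in bone and to 114 to 538 elsewhere, and 10 osteoclast genes to 78.4 to 101 against 47.7 to 123. The part of these cells in the results below was not tested, except that counts were repeated without the muscle-rich bone libraries 1 and 2, a choice made after seeing the data. That left bone library 3 alone, assumed to vary like the other groups, with 2395 genes higher and 1638 lower.

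**Figure D1:**
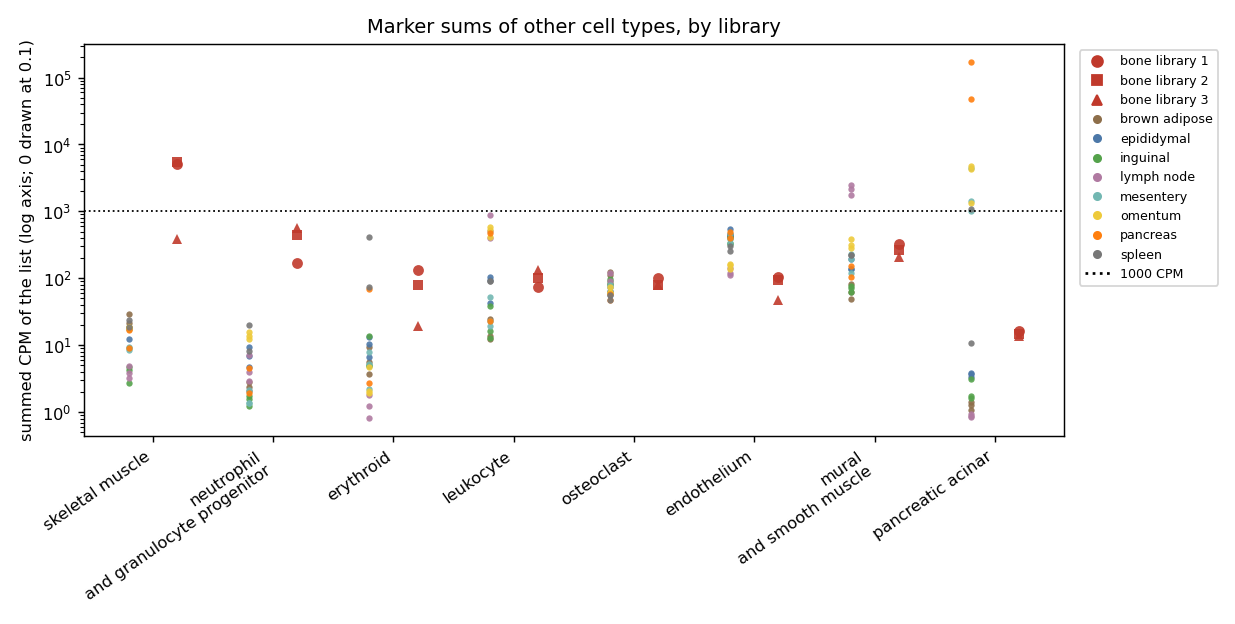
Summed CPM of 8 cell type marker lists in each library, on a log axis with a dotted line at 1000 CPM. Each list has 1 column of points for bone and 1 for all other tissues, told apart by colour. Bone libraries 1 and 2 stand above that line for skeletal muscle genes (5165 and 5460 CPM), and all 3 bone libraries lie above the others for neutrophil genes.

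The factors that direct bone formation are shown first with the sequences upstream of their best known target genes. RUNX proteins bind the letters TGTGGT, or ACCACA on the other strand, and osteocalcin is a classical RUNX2 target. Up to 250 bases upstream of the gene start are printed 5′ to 3′ on the gene's strand for 5 genes of the bone matrix and its turnover on which the results below turn, from RefSeq's promoter table (GRCm38.p6), with ACCACA in capitals.

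Bglap, chr3:88384467-88384716, minus strand: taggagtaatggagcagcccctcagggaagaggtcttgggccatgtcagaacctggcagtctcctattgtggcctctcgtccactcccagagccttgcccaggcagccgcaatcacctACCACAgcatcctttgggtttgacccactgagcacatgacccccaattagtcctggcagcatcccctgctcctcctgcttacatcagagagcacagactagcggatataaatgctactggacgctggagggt
Spp1, chr5:104434861-104435110, plus strand: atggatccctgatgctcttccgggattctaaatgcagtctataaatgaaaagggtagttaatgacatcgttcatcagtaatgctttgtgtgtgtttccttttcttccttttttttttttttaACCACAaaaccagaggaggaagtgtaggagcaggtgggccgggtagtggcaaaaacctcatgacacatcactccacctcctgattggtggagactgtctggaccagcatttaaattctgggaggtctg
Dmp1, chr5:104202367-104202612, plus strand: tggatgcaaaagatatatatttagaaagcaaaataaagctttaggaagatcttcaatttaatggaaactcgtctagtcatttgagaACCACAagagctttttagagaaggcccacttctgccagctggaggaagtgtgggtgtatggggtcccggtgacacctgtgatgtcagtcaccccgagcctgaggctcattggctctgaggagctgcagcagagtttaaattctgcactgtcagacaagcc
Mmp13, chr9:7272264-7272513, plus strand: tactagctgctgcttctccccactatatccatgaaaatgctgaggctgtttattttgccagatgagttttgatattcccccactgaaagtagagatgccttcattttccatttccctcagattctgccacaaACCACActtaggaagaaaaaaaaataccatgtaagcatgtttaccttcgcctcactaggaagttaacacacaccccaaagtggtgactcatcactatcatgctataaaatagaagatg
Ibsp, chr5:104299037-104299170, plus strand: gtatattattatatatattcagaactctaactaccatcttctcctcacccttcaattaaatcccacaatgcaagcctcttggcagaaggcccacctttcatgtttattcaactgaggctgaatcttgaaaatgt

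The first base of the match lies 134 bases upstream of the annotated start of Bglap, 135 upstream of Spp1, 160 upstream of Dmp1 and 118 upstream of Mmp13, and the shorter Ibsp window of 134 bases holds none. Windows cut in the same way for Alpl (250 bases) and Runx2 (80 bases) are not printed and hold none. The longer window of 250 bases before RefSeq's start of Runx2 did hold a match. Of the 18 mineralised matrix genes called higher, 14 had an entry in the table, and 5 of these (35.7%) held either form in the 250 bases before RefSeq's gene start: Bglap, Spp1, Dmp1, Mepe and Enpp1. Over the 14584 tested genes with a window the share was 11.5%. A match describes the letters and is not evidence of binding.

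Osteoblast transcription factors were higher in bone in 9 of 12 cases (12.3% of all genes tested were higher), none was lower, and their median log2 fold change was 2.83. Runx2 (chr17:44495987-44814797), required for osteoblast formation, was at 57.2, 74.4 and 78.3 CPM in bone and in the 22 other libraries at lowest 0.0701, median 0.996 and highest 2.22 CPM (log2 fold change 6.62 ± 0.16, adjusted p = 3.7e-22). Sp7, which acts downstream of it, was at 54.97, 89.9 and 118 CPM and at most at 0.242 CPM elsewhere, with 12 of the other libraries at 0 (2397-fold by mean, adjusted p = 1.4e-27). For both genes no bone library came near the other 22.

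The DLX homeobox proteins, which act with RUNX2 in skeletal cells, were higher as well. Dlx5 was at 48.7, 66.2 and 63.4 CPM against 0.0233 to 1.904 CPM (log2 fold change 7.52 ± 0.17, adjusted p = 6.6e-27) and Dlx3 at 16.9, 29.2 and 30.1 CPM against 0.0233 to 2.14 CPM (7.08 ± 0.26). Dlx6 was at 2.98, 3.54 and 3.63 CPM, with a log2 fold change of 1.63 ± 0.31. Runx3 was at 7.42, 8.297 and 5.43 CPM (3.75 ± 0.23), and Creb3l1, a regulator of collagen secretion in osteoblasts, at 136, 166 and 192 CPM against 17.5 to 96.3 CPM (1.87 ± 0.17). Twist1, at 7.02, 11.3 and 12.1 CPM, was called (1.90 ± 0.21) although its bone values overlapped the other libraries (0.609 to 9.08 CPM). Msx1 (-0.13), Msx2 (1.13, adjusted p = 0.086) and Atf4 (0.96 ± 0.13) were not called. Without bone library 2, Msx2 and Atf4 were called higher (1.66 and 1.02), and Msx2 was also called without epididymal library 3, inguinal library 3 or lymph node library 2 (1.27 to 1.29). Bone library 1 was the lowest of the 3 for 8 of the 9 genes called higher, and library 3 the highest for 7.

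Of the 19 genes of the mineralised matrix 18 were higher, with a median log2 fold change of 7.25 (6.90 with tissues at 0 set to a floor of 3 counts), and for 17 of them no bone library overlapped the others. Osteocalcin, the calcium-binding protein made by mature osteoblasts, comes from neighbouring gene copies. Bglap (chr3:88383501-88384464) was at 9592, 14469 and 17774 CPM in bone against lowest 0, median 0.0139 and highest 1.38 CPM elsewhere (86035-fold by mean, adjusted p = 1.8e-33). Bglap2 (chr3:88377736-88378699) was at 11944, 17574 and 20560.1 CPM against at most 1.399 CPM (91804-fold, adjusted p = 2.9e-29), and Bglap3 (chr3:88368616-88372743) at 476, 736 and 872 CPM against at most 0.802 CPM (log2 fold change 11.46 ± 0.17, adjusted p = 5.1e-30). Their transcripts are 96.4 to 98.9% identical where they align, so the division of reads among the copies is uncertain. Together the osteocalcin genes took 2.13, 2.89 and 3.34% of bone counts and at most 0.000332% in any other library.

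A cluster of acidic matrix protein genes on chromosome 5 was also near 0 in most libraries outside bone. Ibsp (chr5:104299171-104311469), bone sialoprotein, was at 3936, 5035 and 4621 CPM and reached 0.541 CPM elsewhere, with 19 of 22 other libraries at 0 (86188-fold by mean, adjusted p = 8.3e-18). Dmp1 (chr5:104202613-104214102), which nucleates mineral and is made by late osteoblasts and osteocytes, was at 892, 965 and 1036 CPM against at most 0.997 CPM (log2 fold change 12.16 ± 0.20, adjusted p = 2.5e-29). Mepe (chr5:104325329-104338611), another phosphoprotein of that cluster, was at 2.47, 5.19 and 1.32 CPM against at most 0.0604 CPM (493-fold, adjusted p = 6.1e-09). Spp1 (chr5:104435118-104441050), osteopontin, differed from its neighbours in being present in some soft tissue libraries: bone was at 2653, 4329 and 2385 CPM, and the others had a median of 1.52 CPM but 644 CPM in pancreas library 2 (log2 fold change 10.36 ± 0.51, adjusted p = 1.003e-12). The pancreas mean was 362 ± 398 CPM (SD, n = 2), still below every bone library.

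The enzymes and transporters that deposit mineral were higher too. Alpl, the phosphatase that removes the inhibitor pyrophosphate, was at 1533, 1573 and 1708 CPM against lowest 5.36, median 29.8 and highest 112 CPM (log2 fold change 5.90 ± 0.17, adjusted p = 6.8e-18). Phospho1, which releases phosphate inside matrix vesicles, was at 35.1, 42.7 and 48.8 CPM (10.46 ± 0.26). Ifitm5, a membrane protein of osteoblasts, was at 318, 395 and 419 CPM against 0.41 to 4.53 CPM (8.09 ± 0.16). Smaller differences were seen for Smpd3, a sphingomyelinase (1.67 ± 0.15), for Slc20a2, a phosphate importer (2.89 ± 0.15), and for Enpp1 and Ank, which supply extracellular pyrophosphate (2.88 ± 0.21 and 1.72 ± 0.15). Slc20a1, the related importer, was not called (0.74).

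Further matrix proteins of the same list had ranges closer to those of soft tissue. Sparc, a collagen- and calcium-binding protein, was at 60972, 73954 and 81749 CPM against 3522 to 28159.8 CPM (log2 fold change 2.45 ± 0.12, adjusted p = 2.7e-15), and took 5.90, 6.51 and 6.96% of bone counts. Omd, osteomodulin, was at 253, 317 and 400.3 CPM (3.53 ± 0.11) and Tnn, tenascin N, at 322, 207 and 309.8 CPM (7.25 ± 0.21). Mgp, an inhibitor of calcification, was at 636, 743 and 553 CPM against 16.6 to 766 CPM and was the member called higher whose bone values overlapped the others (1.56 ± 0.28; 1.33 and not called without bone libraries 1 and 2). Bone library 1 was lowest for 13 of the 18 genes called higher and library 3 highest for 10. Without bone libraries 1 and 2, 17 of 19 were called higher.

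**Figure D2:**
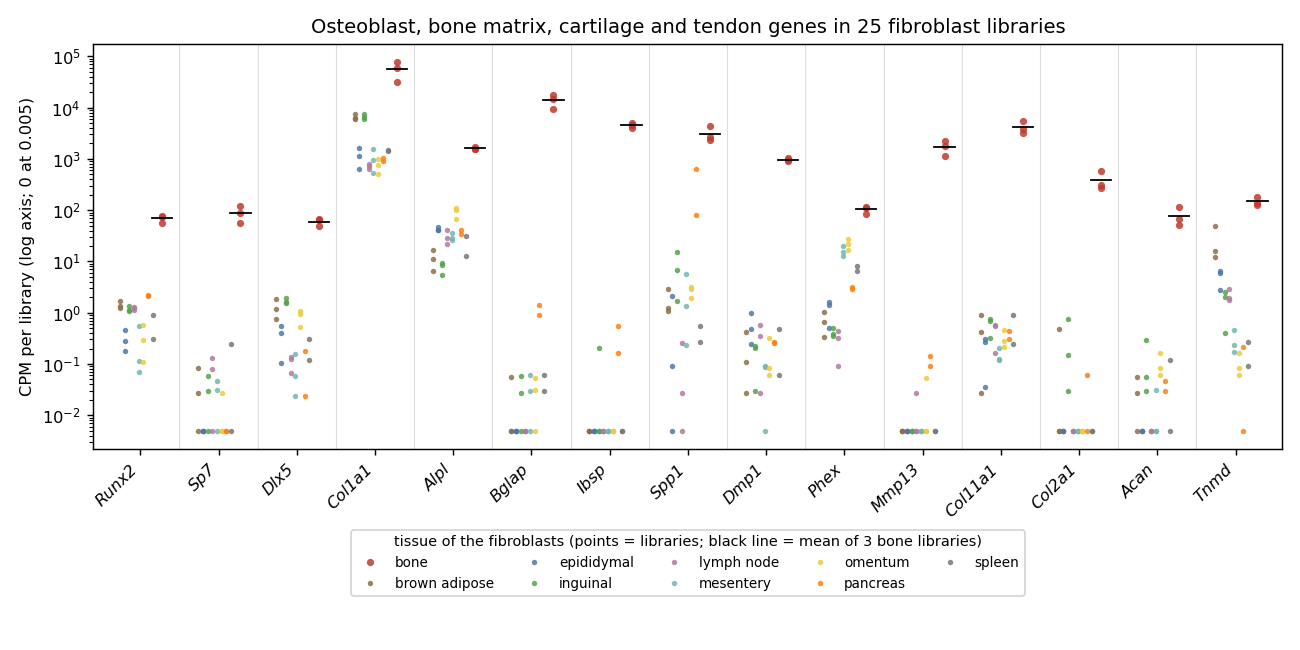
CPM of 15 skeletal genes in each of the 25 libraries by tissue, on log axes with values of 0 drawn at 0.005 and a black line at the bone mean. The 3 bone points lie above every other library for each gene shown. Tnmd, Phex and Spp1 come nearest in other tissues. Tnmd reaches 48.2 CPM and Spp1 644 CPM there, and Phex has an omentum mean of 22.2 CPM.

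Per kilobase of exon, 2 osteocalcin genes led the bone transcriptome. Bglap2 ranked 1 and Bglap 2 among 21780 protein-coding nuclear genes by CPM per kilobase, followed by Sparc (3), Col1a1 (4) and Col1a2 (5). In the mean of the other tissues the same genes ranked 11840, 12558, 2, 123 and 110. Ibsp ranked 12 in bone and 16757 elsewhere. Among genes at the top elsewhere, Gsn, which encodes gelsolin, ranked 1 there and 8 in bone, Dpt 14 and 173, and C3 12 and 737.

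Osteocyte genes were present in part. Of 7 tested, 4 were higher. Phex, the endopeptidase linked to phosphate balance, was at 84.7, 109 and 118 CPM against 0.0928 to 27.9 CPM (log2 fold change 5.50 ± 0.15, adjusted p = 1.2e-20), and Dkk1, a secreted Wnt antagonist, at 15.6, 20.96 and 17.1 CPM (5.52 ± 0.23). Irx5 was low, at 1.74, 2.04 and 2.72 CPM (39.3-fold by mean, adjusted p = 4.5e-10), and Kcnk2, a mechanosensitive channel, was at 8.73, 16.02 and 12.3 CPM against 0.274 to 13.6 CPM (2.06 ± 0.26). Sost, the marker of mature osteocytes, had too few counts to be tested. Fgf23, the phosphate-lowering hormone, was at 0.0334, 0 and 0.2202 CPM in bone and at 12.1 CPM on average in omentum; it was called lower (-3.43 ± 1.31, adjusted p = 0.044), a call that most alternative settings did not keep, among them leaving out bone library 1, 2 or 3 (-3.04, -2.86 and -5.45). Fam20c (0.80) and Capg (-0.81) were not called; without bone library 1, Capg was called lower (-1.03).

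Cartilage genes were higher in 18 of 20 cases, with a median log2 fold change of 9.03 (7.61 at the floor). Col11a1 (chr3:114030540-114220718), a fibril-nucleating collagen of cartilage that osteoblasts also make, was at 3155, 3893 and 5492 CPM against at most 0.906 CPM (log2 fold change 13.51 ± 0.20, adjusted p = 8.7e-27). Col2a1, the main cartilage collagen, was at 309, 580.2 and 269 CPM with 17 of 22 other libraries at 0 (6245-fold by mean, adjusted p = 3.9e-11). Chad, chondroadherin, was at 898, 968 and 865 CPM (8071-fold, adjusted p = 4.9e-29) and Col11a2 at 131, 190.4 and 224 CPM (9562-fold, adjusted p = 2.9e-28). Comp, a cartilage and tendon glycoprotein, was at 201, 275 and 209 CPM (9.49 ± 0.25), and Prg4, the joint lubricant lubricin, at 191, 121 and 134 CPM against 0.723 to 78.9 CPM (4.95 ± 0.14). All of these lay above every other library.

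Members of the cartilage list differed among the bone libraries in a shared way. Hapln1, which links proteoglycan to hyaluronan, was at 60.7, 181 and 52.6 CPM, and Acan, the main cartilage proteoglycan, at 66.4, 113 and 51.4 CPM. Col10a1, the collagen of hypertrophic cartilage, was at 7.02, 38.6 and 10.2 CPM (log2 fold change 7.81 ± 0.32, adjusted p = 6.4e-22; 6.71 without bone library 2). Library 2 was the highest of the 3 for 13 of the 18 genes and library 3 the lowest for 12. Sox9, the factor that sets cartilage fate, was not called (0.84 ± 0.18), and its partner Sox5 was lower (8.93, 6.44 and 6.24 CPM; -1.19 ± 0.17). Sox6 was higher (2.49 ± 0.25).

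Tendon and periosteum genes were higher in 12 of 14 cases (median 5.17). Fmod, which limits collagen fibril width, was at 2209, 2096 and 1837 CPM against 5.77 to 1174 CPM (log2 fold change 4.55 ± 0.23, adjusted p = 2.4e-12), with lymph node the nearest tissue. Mkx, a tendon transcription factor, was at 15.8, 25.6 and 32.5 CPM (6.26 ± 0.23), and Kera, keratocan, at 89.1, 148 and 60.98 CPM (8.59 ± 0.28). Tnmd, a tendon membrane protein, was at 139, 179 and 127 CPM against 0 to 48.2 CPM (log2 fold change 7.46 ± 0.27, adjusted p = 1.2e-17; 8.06 without pancreas library 2), with brown adipose the highest of the others. Tnc, tenascin C, was at 969.8, 968 and 786 CPM (5.79 ± 0.41). Postn, the periosteum-named matrix protein periostin, was called (1.19 ± 0.17) with 1987 ± 222 CPM in inguinal fibroblasts and 1926 ± 269 CPM in bone (SD, n = 3 each; bone minus inguinal -0.05 ± 0.25). Egr1 and Ctsk were not called.

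The fibrillar collagens and their processing enzymes were more often higher than lower: 13 of 25 collagens were higher and 6 lower (median 1.09), and 13 of 30 modifying enzymes were higher and 2 lower (median 0.87). Col1a1 (chr11:94936224-94953042) was at 32149.5, 59099.5 and 76403 CPM against lowest 504, median 1083 and highest 7576 CPM (log2 fold change 5.14 ± 0.20, adjusted p = 2.9e-15). Col1a2 (chr6:4504814-4541544) was at 64335, 88475 and 107913 CPM against lowest 1891, median 3067 and highest 12830.2 CPM (log2 fold change 4.49 ± 0.12, adjusted p = 2.8e-21). These 2 genes, which form type I collagen, took 9.33, 12.99 and 15.7% of all bone counts and 0.245 to 2.09% elsewhere. Bone library 1 was the lowest and library 3 the highest for both, and inguinal library 1 was the highest of the other tissues.

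Rarer collagens separated bone further. Col24a1, a fibrillar collagen associated with bone, was at 109.6, 112 and 204 CPM against at most 2.93 CPM (10.01 ± 0.25), and Col22a1, of tissue junctions, at 93.8, 148 and 172 CPM (7.70 ± 0.19). Col5a2 and Col12a1 were higher by 2.73 ± 0.13 and 4.96 ± 0.20. Col6a5, a soft tissue collagen VI chain, went the other way: 3.91, 1.72 and 3.23 CPM in bone, below all other libraries (4.57 CPM at the lowest; -3.82 ± 0.27). Col14a1 (-1.85 ± 0.22) and Col18a1 (-1.38 ± 0.21) were lower as well.

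Of the enzymes, Lox, which crosslinks collagen, was at 485, 634 and 755 CPM against 21.4 to 279 CPM (2.58 ± 0.13). Plod2, which hydroxylates telopeptide lysines, was at 328, 502 and 660.1 CPM against 11.7 to 66.3 CPM (log2 fold change 3.90 ± 0.17, adjusted p = 4.98e-15), and its chaperone Fkbp10 at 1004, 1057 and 1099 CPM (2.18 ± 0.13). Loxl4 was higher (2.64 ± 0.13), whereas Loxl1, known for elastin crosslinking, and Pcolce2 were lower (-1.26 ± 0.20 and -1.50 ± 0.17). Small leucine-rich proteoglycans were higher in 10 of 18 cases and lower in 2 (median 1.20), among them Bgn, biglycan, at 6403, 6926 and 7219 CPM (1.43 ± 0.14), and, in the other direction, Podn (-1.71 ± 0.24).

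Basement membrane genes were the reverse: 15 of 21 were lower, 1 was higher and the median was -1.76. Lymph node was the lowest of the other tissues for 10 of the 15. Against lymph node alone, 5 of the 15 were called lower in bone and 2 (Col4a5 and Lama2) higher. Col4a1, a chain of the network collagen IV, was at 98.98, 105 and 49.9 CPM against lowest 208, median 439 and highest 861 CPM (log2 fold change -2.34 ± 0.22, adjusted p = 4.5e-09), and Col4a2 was lower as well (-2.34 ± 0.25). Col4a3 was at 7.56, 5.83 and 4.51 CPM against 16.9 to 262 CPM (-4.19 ± 0.27). Lamb1, a laminin chain, was at 256, 165 and 93.7 CPM and lay below every other library (263 to 1769 CPM; log2 fold change -2.35 ± 0.21, adjusted p = 1.5e-09). Nid1, which bridges laminin and collagen IV, was at 621, 499 and 285 CPM against 337 to 3446 CPM (-1.93 ± 0.17) and overlapped them. Library 1 was the highest of the bone libraries for 14 of the 15 genes and library 3 the lowest for 13; without bone libraries 1 and 2, 15 of the 21 were lower. The endothelial marker sum was also below all other libraries in bone (48.1 to 106 against 114 to 538 CPM), and its part in the result was not tested.

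Matrix-degrading enzymes split, with 13 of 37 higher and 11 lower (median 0.01). Mmp13 (chr9:7272514-7283331), the collagenase of osteoblasts and hypertrophic cartilage, was at 2234, 1142 and 1798 CPM against at most 0.1399 CPM, with 18 of 22 other libraries at 0 (97055-fold by mean, adjusted p = 1.2e-18). Mmp16, a membrane-anchored protease, was at 147, 199 and 230.2 CPM (5.07 ± 0.13), Fap, fibroblast activation protein, at 726, 799 and 839 CPM against 46.7 to 273 CPM (2.85 ± 0.11), and the inhibitor Timp1 at 206, 211 and 179 CPM against 15.7 to 61.8 CPM (2.66 ± 0.17). On the lower side, Mmp3, stromelysin, was at 43.8, 16.6 and 33.4 CPM against 31.4 to 3229 CPM (-3.79 ± 0.32) and Mmp19 at 34.3, 20.9 and 19.3 CPM (-2.82 ± 0.19). Adamts5, an aggrecan-cleaving protease, was also lower (-1.57 ± 0.14).

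Elastic fibre and matricellular genes were 8 higher and 9 lower of 29. Lymph node was the lowest of the other tissues for 7 of the 9 lower genes. Against lymph node alone, 0 of the 9 were called lower in bone and 1 (Mfap5) higher. Ccn4, a Wnt-responsive matricellular protein, was at 402, 519 and 573 CPM (log2 fold change 6.30 ± 0.19, adjusted p = 2.5e-17), and Ccn2, connective tissue growth factor, at 155, 231 and 159 CPM (3.23 ± 0.22). Efemp1, fibulin 3, was at 214, 127 and 72.1 CPM (-3.50 ± 0.23), and Fbln5, which assembles elastic fibres, was lower (-1.66 ± 0.13). Library 3 was the lowest bone library for all 9 of the lower genes.

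**Figure D3:**
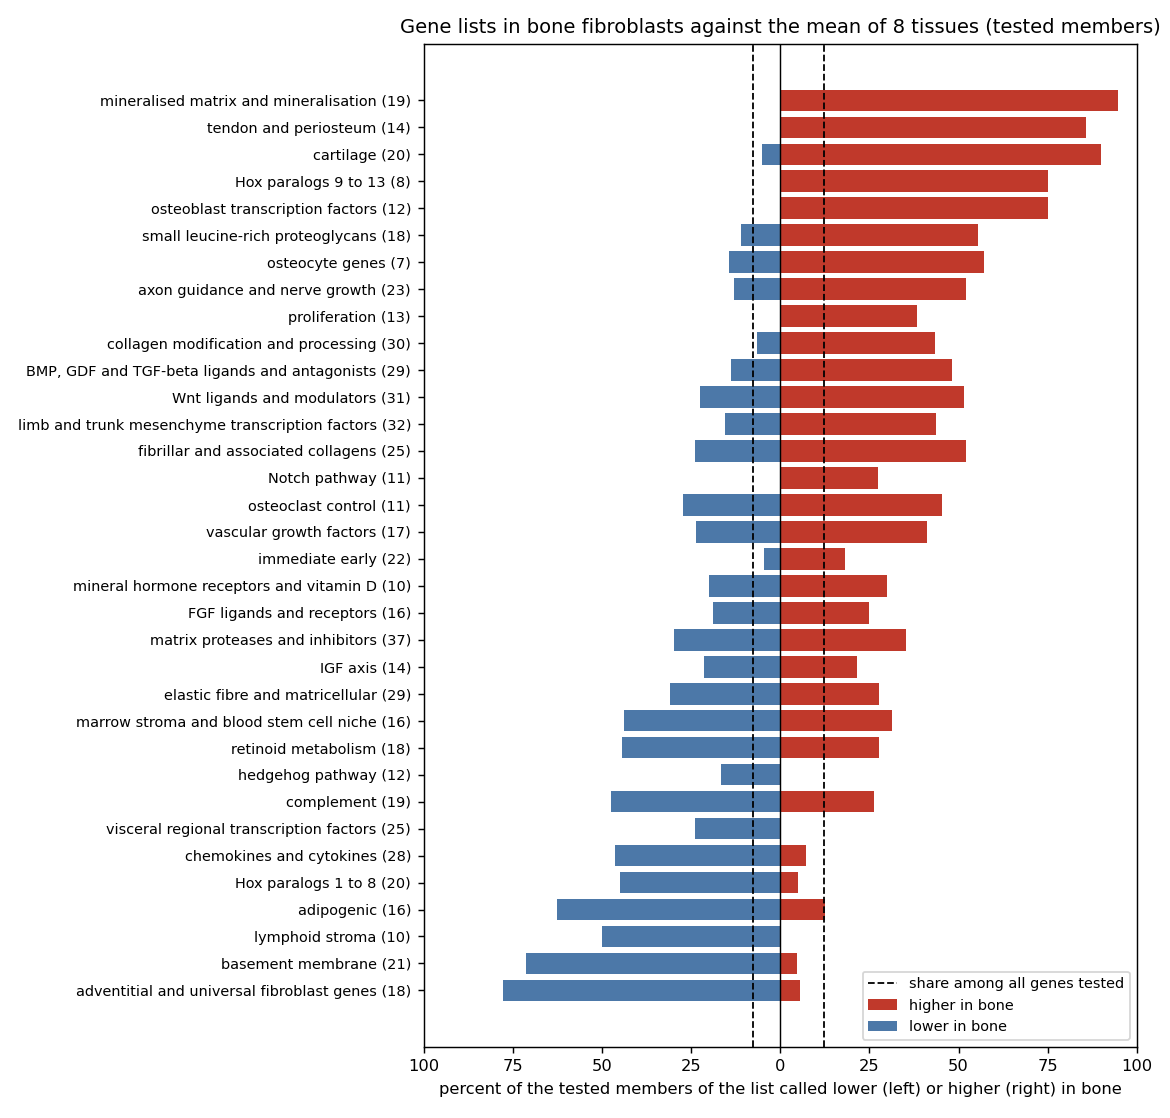
Percent of the tested members of each gene list called higher (right) or lower (left) in bone fibroblasts, with dashed lines at the share of all genes tested, 12.3% higher and 7.55% lower. Skeletal lists extend to the right (94.7% for mineralised matrix, 90.0% for cartilage), and adventitial and basement membrane genes to the left (77.8% and 71.4%).

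Signals that control osteoclasts, the bone-resorbing cells, were 5 higher and 3 lower of 11. Tnfsf11 encodes RANKL, the ligand that drives osteoclast formation. It was low in bone, at 1.54, 1.72 and 1.54 CPM, and called higher than the mean of the tissues (1.66-fold by mean), yet lymph node fibroblasts had more, 7.52 ± 0.918 CPM (bone minus lymph node -2.23 ± 0.34, adjusted p = 7.1e-06). Its decoy receptor Tnfrsf11b, osteoprotegerin, was at 69.95, 67.2 and 62.7 CPM against 0.847 to 141 CPM (1.53 ± 0.26; 0.93 and not called without lymph node in the mean), with spleen at 109 ± 44.7 CPM. Pthlh, parathyroid hormone-related protein, was at 36.05, 34.2 and 21.1 CPM (1.59 ± 0.16); Sema3a and Efnb2, which act on osteoclast precursors, were higher, with values of 2.08 ± 0.20 and 1.66 ± 0.30. Csf1, which sustains macrophages and osteoclast precursors, was at 108, 86.8 and 62.96 CPM against 82.1 to 515 CPM (-1.74 ± 0.30). Il6 was at 62.96, 31.3 and 26.1 CPM against 2.58 to 1707 CPM (-1.79 ± 0.44) and Il34, a second ligand of the CSF1 receptor, at 18.6, 17.7 and 11.6 CPM (-1.07 ± 0.15; -0.86 and not called without bone library 3). Ptgs2 (-0.44), Ephb4 (-0.59) and Bmpr1a (-0.36) were not called.

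Of 10 genes for receptors of mineral hormones and vitamin D metabolism, 3 were higher and 2 lower (30% and 20%, against 12.3% and 7.55% of all genes tested). Pth1r, the parathyroid hormone receptor, was at 74.6, 113 and 90.6 CPM against lowest 2.39, median 5.31 and highest 11.7 CPM (log2 fold change 4.10 ± 0.11, adjusted p = 9.99e-21). Vdr, the vitamin D receptor, was at 86.4, 129 and 92.02 CPM against lowest 0.2098, median 2.68 and highest 21.1 CPM (log2 fold change 5.32 ± 0.24, adjusted p = 5.7e-14), and Cyp27b1, which activates vitamin D, was higher (3.13 ± 0.40). The bone libraries did not overlap the others for either receptor. Calcrl was lower (-1.38 ± 0.17).

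Genes of the marrow niche for blood-forming cells went both ways, 5 higher and 7 lower of 16. Cxcl12, the chemokine that retains blood stem cells in marrow, was at 147, 226 and 101 CPM against lowest 152, median 397 and highest 9270.2 CPM (-1.90 ± 0.23), with lymph node highest at 7582 ± 2356 CPM. Lepr, the leptin receptor that marks marrow stromal cells, was at 48.2, 60.7 and 47.99 CPM and called higher (1.91 ± 0.17), but lymph node fibroblasts were at 1412 ± 542 CPM and spleen at 56.1 ± 11.4. Kitl, stem cell factor, was lower (26.9, 22.996 and 27.6 CPM; -1.54 ± 0.16), as was Ebf1, a stromal transcription factor, for which bone lay below all others (151, 148 and 112 CPM against 217 to 458 CPM; -1.29 ± 0.13). Foxc1 was higher (4.29 ± 0.23). Without bone libraries 1 and 2 the list had 3 higher and 9 lower.

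Wnt ligands and modulators were 16 higher and 7 lower of 31 (median 1.60). Wnt signalling promotes osteoblast formation and is held in check by secreted inhibitors. Tcf7, a nuclear effector, was at 10.7, 16.2 and 20.5 CPM against 0 to 1.95 CPM (log2 fold change 6.05 ± 0.24, adjusted p = 4.8e-22); Wnt16, a ligand active in cortical bone, was at 31.03, 27.8 and 29.6 CPM (72.8-fold by mean, adjusted p = 5.7e-21). The co-receptor Lrp4, which binds sclerostin, was at 96.2, 133 and 131 CPM (3.43 ± 0.16), and the intracellular inhibitor Nkd2 at 60.7, 69.2 and 96.8 CPM (2.62 ± 0.13). Among secreted inhibitors, Frzb was at 30.5, 26.97 and 33.1 CPM (4.93 ± 0.24), Sfrp4 at 795, 614 and 632 CPM (1.60 ± 0.13) and Wif1 at 131, 236 and 137 CPM (157-fold by mean). Sfrp1, of the same family as Frzb and Sfrp4, was at 28.7, 15.7 and 13.2 CPM, below every other library (32.7 to 402 CPM; log2 fold change -2.79 ± 0.27, adjusted p = 1.1e-08). Rspo3, an amplifier of Wnt signals, and Wnt5a were lower (-1.76 ± 0.22 and -1.14 ± 0.18). Axin2, a common target of the pathway, was not called (-0.61).

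BMP, GDF and TGF-beta ligands and antagonists were 14 higher and 4 lower of 29 (median 1.07). Bmp3, an abundant and atypical BMP of bone, was at 251, 316 and 359 CPM against lowest 1.06, median 7.35 and highest 91.1 CPM (log2 fold change 4.83 ± 0.14, adjusted p = 2.1e-19). Bmp8a (4.48 ± 0.26), Inhba, the activin A subunit (55.3, 56.7 and 71.4 CPM; 3.52 ± 0.23), and Bambi, a decoy receptor (131, 167 and 183 CPM; 4.54 ± 0.30), were higher. Gdf10 was at 16.8, 19.2 and 10.6 CPM against 44.2 to 269 CPM (-3.19 ± 0.20), and Fst, follistatin, which binds activin, at 11.1, 11.2 and 9.69 CPM against 17.4 to 74.5 CPM (-1.77 ± 0.16). For both lower genes the bone libraries lay below all others.

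Of 14 genes of the insulin-like growth factor axis, 3 were higher and 3 lower (21.4% each, against 12.3% and 7.55% of all genes tested). Igf2, a growth factor abundant before birth, was at 105, 167 and 114 CPM against lowest 0.748, median 3.08 and highest 11.6 CPM (log2 fold change 5.33 ± 0.22, adjusted p = 2.5e-15). Its imprinted neighbour H19, a noncoding RNA that muscle also makes, was at 49.1, 104 and 39.4 CPM (4.31 ± 0.20). The muscle sums of the same libraries were 5165, 5460 and 388 CPM, and their part in the result was not tested. The binding proteins Igfbp7 and Igfbp4 were lower (-2.41 ± 0.21 and -1.75 ± 0.25). Of 16 fibroblast growth factor genes, 4 were higher and 3 lower (25% and 18.75%, against 12.3% and 7.55% of all genes tested). The receptors Fgfr2 and Fgfr3, both mutated in skeletal disorders, were at 61.8, 72.1 and 72.6 CPM (3.29 ± 0.18) and 53.4, 49.96 and 34.3 CPM (5.11 ± 0.34). The ligand Fgf10 was at 2.21, 3.65 and 1.25 CPM against 7.69 to 113 CPM (-3.93 ± 0.26), and Fgf2 and Fgf7 were lower (-1.98 ± 0.20 and -1.12 ± 0.13).

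Genes that mark adventitial or broadly shared fibroblasts were lower in 14 of 18 cases (median -1.59), 1 of them without overlap, and the single higher gene was Bmp3. Lymph node was the lowest of the other tissues for 13 of the 14, and against lymph node alone 7 of the 14 were higher in bone, among them Ackr3 (log2 difference 1.75), Anxa3 (1.23), Ly6c1 (1.10) and Dpp4 (1.07). Dpt, dermatopontin, was at 512, 400.3 and 178 CPM against lowest 876, median 3444 and highest 5285 CPM (log2 fold change -2.97 ± 0.26, adjusted p = 9.3e-10). Ly6a was at 582, 398 and 242 CPM against 217 to 3794 CPM (-1.96 ± 0.21) and Cd34 at 829, 586 and 316 CPM against 291 to 3495 CPM (-1.60 ± 0.18); both overlapped the lymph node libraries. Il33, an alarmin cytokine, was at 64.8, 49.03 and 26.97 CPM (-2.60 ± 0.21) and Anxa3 at 135, 114 and 82.4 CPM (-1.88 ± 0.15). Pi16, a marker of adventitial fibroblasts, was lower (-1.40 ± 0.26). Bone library 1 was highest for 13 of the 14 lower genes and library 3 lowest for all 14. With library 3 as the only bone library, 16 of 18 were lower.

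Adipogenic genes were lower in 10 of 16 cases and higher in 2 (median -1.17); with bone library 3 alone 6 were lower. Lpl, lipoprotein lipase, was at 226, 192 and 154 CPM, below every other library (732 to 2973 CPM; log2 fold change -2.95 ± 0.17, adjusted p = 1.5e-13), and F3, tissue factor, was lower in the same way (87.98, 80.5 and 53.9 CPM; -2.37 ± 0.16). Ebf2, a factor of adipocyte precursors, was lower (-1.53 ± 0.18). Pparg, the master regulator of fat cells, was at 0.803, 1.86 and 0.0734 CPM (log2 fold change -3.27 ± 0.44, and -4.27 without bone library 2). Pparg was not called against lymph node alone (bone minus lymph node -0.89 ± 0.58) or pancreas alone (bone minus pancreas -0.77 ± 0.63). Lymph node was the lowest of the other tissues for 5 of the 10 lower genes. Against lymph node alone, 5 of the 10 were called lower in bone and 0 higher. Gpd1, an enzyme of glycerol metabolism, was called higher (16.6, 15.1 and 2.05 CPM, log2 fold change 2.45 ± 0.35). The Gpd1 value was -0.0046 without the muscle-rich libraries 1 and 2. Zfp423, the other gene called higher, was at 20.99 ± 0.65 CPM in bone (SD, n = 3), with a log2 fold change of 1.03 ± 0.15. Its mean in brown adipose was 20.5 CPM (bone minus brown adipose 0.03 ± 0.21).

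**Figure D4:**
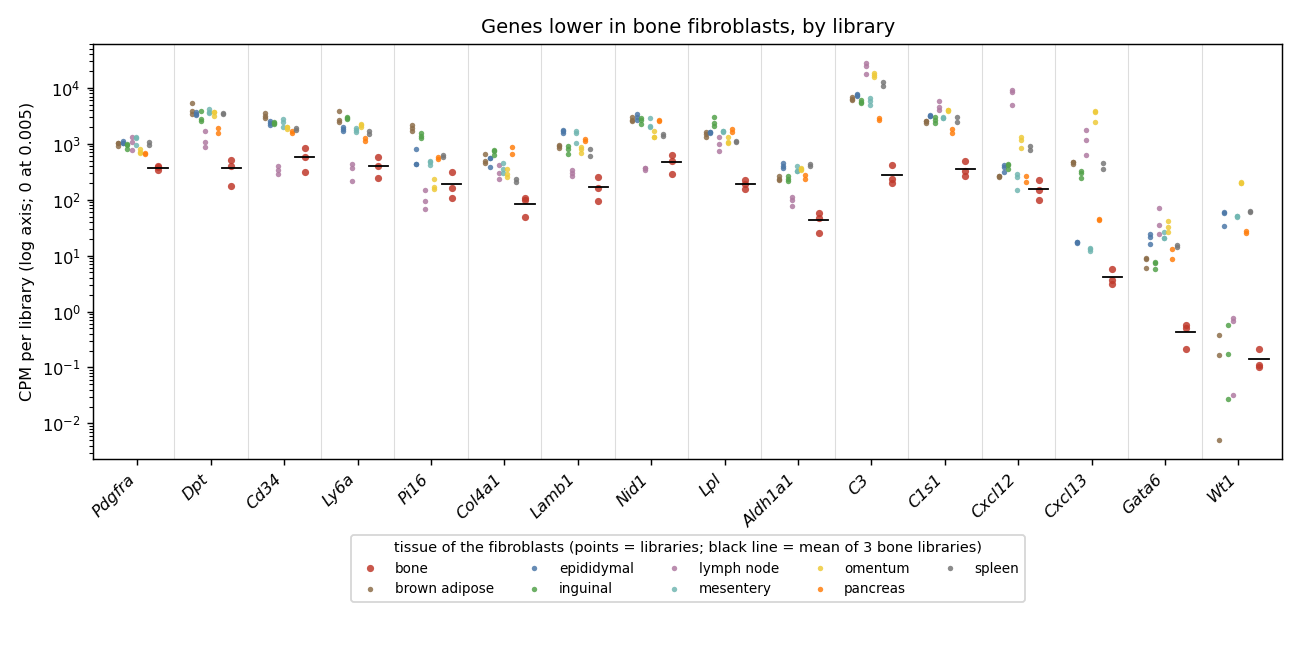
CPM of 16 genes of soft tissue fibroblasts in each of the 25 libraries by tissue, on log axes with values of 0 drawn at 0.005 and a black line at the bone mean. All 3 bone points lie below the other libraries for genes such as Pdgfra, Dpt, Lpl and C3; Cd34, Ly6a and Pi16 overlap them, and Cxcl12 and Wt1 vary widely among the other tissues.

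Innate immune genes made up another block of low genes. Of 19 complement genes 9 were lower and 5 higher (median -1.59). C3, the central component, was at 417, 232 and 198 CPM against lowest 2694, median 7016 and highest 28096 CPM (log2 fold change -4.87 ± 0.22, adjusted p = 9.4e-16), and C1s1, a protease that starts the classical pathway, at 498, 323 and 263 CPM against 1567 to 5818 CPM (log2 fold change -3.02 ± 0.17, adjusted p = 6.8e-14). Serping1, which inhibits that protease, was at 1333, 963 and 759 CPM (-2.20 ± 0.14). In the other direction, Cd59a, which blocks the membrane attack complex, was higher (65.8, 120.4 and 93.05 CPM; 3.62 ± 0.14). No bone library overlapped the others for any of these 4 genes.

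Chemokines and cytokines were lower in 13 of 28 cases and higher in 2 (median -1.17). These shares were 46.4% and 7.14%, against 7.55% lower and 12.3% higher of all genes tested. Cxcl13, the B cell attractant, was at 5.82, 3.08 and 3.596 CPM against lowest 12.1, median 335 and highest 3892 CPM (log2 fold change -5.55 ± 0.29, adjusted p = 2.4e-14), and Ccl11, eotaxin, at 175, 116 and 59.7 CPM against 399.9 to 1652 CPM (-2.82 ± 0.23). Tnfsf13b, the B cell survival factor BAFF, and Cxcl16 were lower (-3.81 ± 0.19 and -2.11 ± 0.17). Among 10 lymphoid stroma genes 5 were lower and none was higher, including Enpp2, autotaxin (-2.48 ± 0.22), and Il1r1 (-2.32 ± 0.18).

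Retinoid metabolism genes were 5 higher and 8 lower of 18. Crabp2, which carries retinoic acid to its receptor, was at 18.3, 13.9 and 17.1 CPM (log2 fold change 7.58 ± 0.22, adjusted p = 2.3e-29), and Cyp26a1, which degrades retinoic acid, at 10.6, 12.8 and 11.9 CPM (164-fold by mean, adjusted p = 2.2e-15). The enzymes that oxidise retinol and retinal differed among themselves. Aldh1a1 was at 59.1, 47.1 and 25.5 CPM against 75.8 to 454 CPM (-2.63 ± 0.18) and Adh1 at 75.8, 78.4 and 30.5 CPM against 238 to 1244 CPM (-2.88 ± 0.25). For both the bone libraries lay below all others. Aldh1a2 was not called (20.3 ± 16.2 CPM; log2 fold change 0.44 ± 0.35, adjusted p = 0.400), and Adh7 was higher (15.7 ± 3.09 CPM; 2.05 ± 0.18) with overlap. With bone library 3 alone, 4 of the 18 were lower.

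Transcription factors that record body position differed by region. Limb and trunk factors were 14 higher and 5 lower of 32 (median 0.93, 0.69 at the floor). Shox2, a limb patterning factor, was at 43.03, 45.6 and 56.5 CPM against 0 to 24.2 CPM, with inguinal fat next at 23.2 ± 0.828 CPM (log2 fold change 5.75 ± 0.17, adjusted p = 4.3e-22). Tbx15 was at 39.2, 42.6 and 33.8 CPM (3.89 ± 0.17) and overlapped the others (0.0909 to 60.3 CPM). Pitx1, which specifies hindlimb, was at 1.77, 1.68 and 1.61 CPM (12.8-fold by mean, adjusted p = 1.01e-12). Eya1, which is also a muscle factor, was higher by 4.51 ± 0.31; the skeletal muscle sum was also higher in bone (388 to 5460 against 2.76 to 29.0 CPM), and its part in the result was not tested. Osr1 was at 9.33, 10.2 and 12.2 CPM against 26.4 to 138 CPM (-2.84 ± 0.20).

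Factors of visceral regions were lower in 6 of 25 cases and higher in none (median -1.16, -0.82 at the floor). Gata6 was at 0.568, 0.215 and 0.514 CPM against lowest 5.74, median 18.4 and highest 69.9 CPM (log2 fold change -5.25 ± 0.40, adjusted p = 4.6e-11), and Wt1, of visceral mesothelium and stroma, at 0.1003, 0.215 and 0.1101 CPM against 0 to 209 CPM (-5.83 ± 0.51). Nr2f2 was at 4.71, 6.51 and 3.01 CPM against 10.5 to 218 CPM (-3.24 ± 0.22).

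The Hox genes, whose position in their clusters follows the head-to-tail axis, differed by paralog number in the share called. Of the paralogs 1 to 8, 9 of 20 were lower and 1 higher (median -1.22, -1.003 at the floor). Several of the lower genes had few counts in bone. Hoxa2 was at a mean of 0.179 CPM against 0.730 in the other tissues, Hoxa4 at 0.156 against 0.980 and Hoxb5 at 0.388 against 4.07. Hoxa7, at 9.14 CPM in bone, was not called (-0.05 ± 0.22). Of the paralogs 9 to 13, 6 of the 8 tested were higher (median 3.73, 3.29 at the floor), and 8 more had too few counts. Hoxa10 was at 29.2, 35.7 and 34.01 CPM, with inguinal fat at 16.8 ± 0.563 and lymph node at 6.699 ± 1.08 CPM, and Hoxc10 at 40.1, 43.7 and 30.5 CPM, with inguinal fat at 35.4 ± 2.55. Hoxa9 was at 5.22, 11.3 and 11.01 CPM (log2 fold change 5.995 ± 0.37, adjusted p = 8.3e-13), with inguinal fat at 8.92 ± 3.17. Bone minus inguinal fat was 0.98 ± 0.22 for Hoxa10, 0.10 ± 0.26 for Hoxc10 and 0.04 ± 0.34 for Hoxa9, and none of these passed the call. Hoxa10 missed it by size only (adjusted p = 0.00080), and all bone libraries lay above the others for this gene. Hoxc10 and Hoxa9 had adjusted p = 0.84 and 0.96. Hoxb9 had another pattern, at 0.595 ± 0.255 CPM in bone, 0 in inguinal fat and 0.531 ± 0.149 CPM in spleen, the highest of the others. With bone library 3 alone, 1 of the paralogs 1 to 8 was lower.

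**Figure D5:**
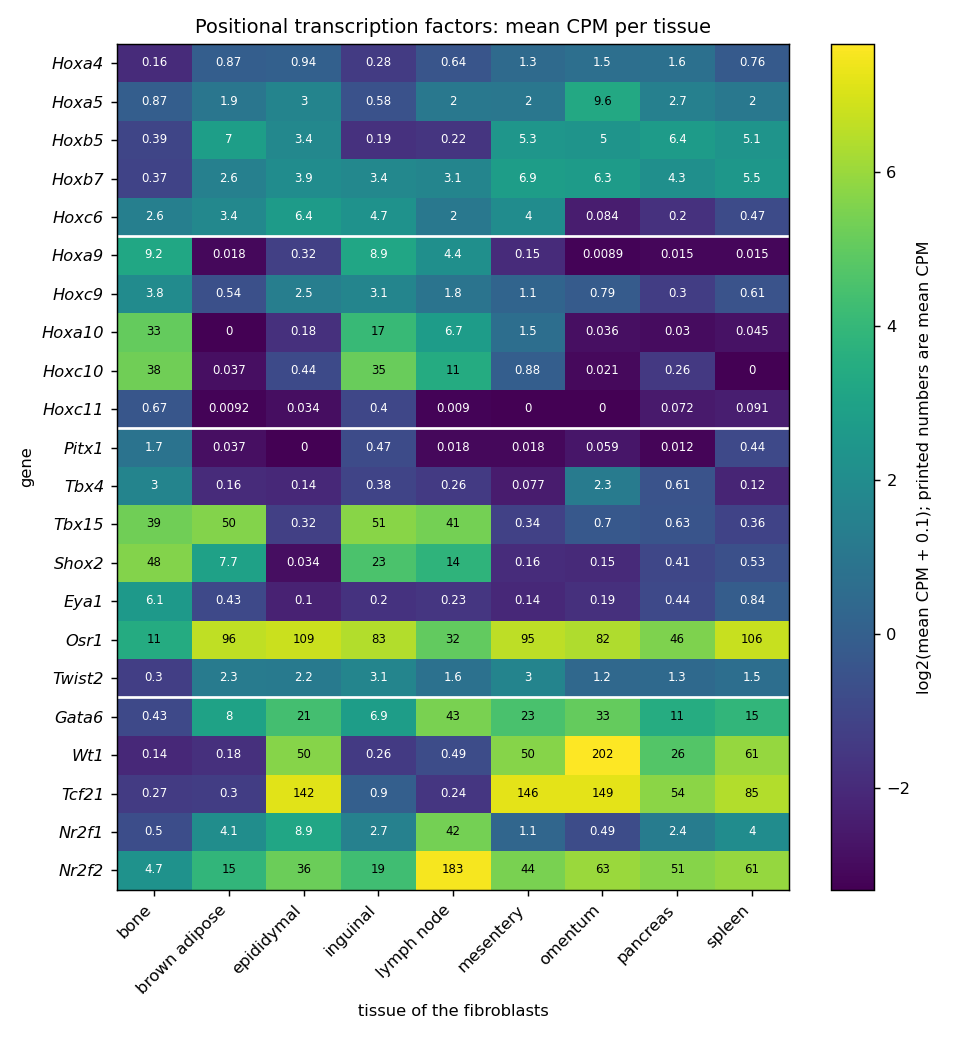
Heat map of the mean CPM of 22 positional transcription factors (rows) in the 9 tissues (columns), coloured by log2 of the mean CPM plus 0.1. Hoxa9, Hoxa10, Hoxc9 and Hoxc10 are highest in bone and in inguinal fat (Hoxc10 at 35.4 CPM there), with lower values in lymph node (Hoxa10 at 6.699 CPM), and bone has little Gata6, Wt1 or Nr2f2.

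By the size of the difference alone, the genes farthest from all other tissues were mainly those described above. Measured against the nearest tissue, pancreas in each case, Bglap, Bglap2, Ibsp and Mmp13 were 13.6 to 13.8 log2 units higher. Others had no place in the lists. Entpd3, a nucleotide-hydrolysing membrane enzyme, was at 457, 551 and 620.0 CPM against 0 to 1.03 CPM (log2 fold change 12.82 ± 0.25, adjusted p = 3.5e-34; 13.46 without inguinal library 1), and Lipc, hepatic lipase, at 175, 219 and 268 CPM (5472-fold by mean, adjusted p = 6.6e-27). Ccdc194 was at 46.2, 59.8 and 80.6 CPM, with 1 count in all other libraries (ratio 50819, 95% counting interval 9121 to 2007230). Myog, the muscle differentiation factor, was at 77.4, 32.9 and 15.7 CPM and at 0 in all 22 others, at least 10721-fold higher by a floor of 3 counts over the group; the muscle sums of the same libraries were 5165, 5460 and 388 CPM, and their part in the result was not tested.

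Among the lowest genes, Folh1, a folate hydrolase, and Ugt1a6b, a glucuronosyltransferase, had no count in bone and were at least 357-fold and at least 439-fold lower; Ugt1a6b shares exons with Ugt1a6a (-4.88 ± 0.27), so the division of reads between them is uncertain. Sult1e1, an oestrogen sulfotransferase, was at 0.702, 0 and 0.0367 CPM against 1.37 to 1337 CPM (log2 fold change -8.62 ± 0.65, adjusted p = 1.1e-09; -12.21 without bone library 1). Insrr had 2 counts in bone (1090-fold lower, 95% counting interval 302 to 9004). Inmt, a methyltransferase, was at 16.9, 13.4 and 6.38 CPM (-5.32 ± 0.29), and Trarg1, which affects glucose transporter traffic in fat, at 1.71, 0.858 and 1.17 CPM (-5.18 ± 0.43). Adhfe1 was at 1.64, 0.501 and 0.257 CPM (-4.85 ± 0.29; -5.95 without bone library 1). Each of these lay below all 22 other libraries.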

How the data were processed

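The deposited files hold whole-number read counts per gene for single libraries, which per the file headers are reads with a unique alignment to a gene model. Salmon and GRCm38 appear in the submitters' processing notes; which step gave the counts, and the annotation release, are not given in the sources used here. The 51826 identifiers were joined to GENCODE M21 symbols and positions (51633 had a symbol). Groups followed the labels. Counts from 25 libraries in 9 groups were fitted with edgeR 4.0.16 (R 4.3.3, limma 3.58.1): filterByExpr with a minimum count of 10, TMM, robust glmQLFit, glmQLFTest and Benjamini-Hochberg adjustment over 24507 genes. Marker sums used unscaled totals. The fit was tested on simulated counts. Same-numbered libraries did not deviate together (22 pairs, r -0.19 to 0.136, 1 over 0.1), so numbers were not used to pair samples. Intervals and floors (3 counts) cover counting error only.

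Named genes were the sort markers, the 12 genes per direction with the largest called differences at 10 CPM or more without overlap, the 6 per direction farthest from the nearest tissue, all members of the bone lists (osteoblast factors, mineralised matrix, osteocytes, osteoclast control), and up to 6 called members per direction of other lists, with members that background needed. Some genes that these rules name are not reported here. Members and lists were chosen with earlier results of these data known. Alternatives were DESeq2 1.42.0, limma-voom, glmTreat, other scalings, filters and sample sets, a replicate block and leaving out each library.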

Additional observations from a re-analysis of the deposited data

How the results depend on the processing

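The limits of the data are few libraries (3 of bone), unstated bone site and animal origin, muscle and neutrophil RNA in the bone libraries, and copies that share reads. Depth limits genes near 0 outside bone, whose ratios depend on single counts. Testing against a log2 fold change of 1 (glmTreat) left 1948 genes higher and 902 lower; list counts moved to 4 for lower Wnt genes, 3 for lower collagens, 6 for lower adipogenic, 3 for lower retinoid, 3 for lower Hox 1 to 8, 3 for higher complement and 1 for higher proliferation genes. Without bone libraries 1 and 2 (chosen after seeing the data), counts moved to 3 for higher niche, 6 for lower adipogenic, 4 for lower retinoid, 1 for lower Hox 1 to 8 and 1 for higher proliferation genes. Proliferation also moved to 2 with library totals alone and to 2 without lymph node in the mean, and ranged from 2 to 6 when leaving out single libraries. Gpd1 changed sign without bone libraries 1 and 2 (-0.0046, adjusted p = 1.0), and Hoxc6 without libraries of at least 1000 acinar CPM (-0.041, adjusted p = 0.969); the cause was not tested. With a replicate block, which the numbers do not justify as a pairing, 3001 genes were higher and 1833 lower, and 297 of 299 named genes kept their call. Leaving out 1 library gave 2696 to 3355 higher and 1427 to 1867 lower. DESeq2 called 2733 and 1942, limma-voom 2885 and 1824, library totals 2601 and 2373, and no filter on low counts 3782 and 1846. Library totals shifted the median of all genes by -0.19.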

Other observations

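Genes that guide axons and nerves were 12 higher and 3 lower of 23 in bone fibroblasts (12.3% and 7.55% of all genes tested), with a median log2 fold change of 1.63 (1.19 at the floor). Nrp2, a semaphorin co-receptor, was at 261, 382 and 478 CPM against lowest 1.26, median 10.4 and highest 49.9 CPM (log2 fold change 5.26 ± 0.13, adjusted p = 1.6e-21). Sema4d was at 74.6, 101 and 115 CPM (7.31 ± 0.22), Unc5b, a netrin receptor, at 85.3, 93.1 and 100.5 CPM (4.83 ± 0.15) and Sema3d at 137, 189.9 and 282 CPM (2.89 ± 0.14). Nrp1, the paralog of Nrp2, was lower (-1.23 ± 0.12), as was Slit3 (-1.77 ± 0.16). Library 3 was the highest bone library for 9 of the 12 higher genes.

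Growth factors for vessels were 7 higher and 4 lower of 17. Pdgfa and Pdgfc, ligands of the receptor used in the sort, were higher (3.21 ± 0.21 and 2.93 ± 0.18), while Pdgfra itself was lower. Vegfd, a lymphatic growth factor, was at 4.71, 2.22 and 1.69 CPM against 27.6 to 329 CPM (log2 fold change -5.13 ± 0.25, adjusted p = 3.1e-15), and Vegfc was lower too (-1.79 ± 0.36). Of 13 proliferation genes, 5 were called higher and none lower, led by Rrm2, a subunit of ribonucleotide reductase (38.2, 31.1 and 35.7 CPM; 1.76 ± 0.20); 2 were called without bone library 1, 3 without bone library 3 and 1 without bone libraries 1 and 2. Of 11 Notch pathway genes 3 were higher (27.3%, against 12.3% of all genes tested), including the target gene Hey1 (2.79 ± 0.27). Of 22 immediate early genes 4 were higher and 1 lower (18.2% and 4.55%, against 12.3% and 7.55% of all genes tested).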
